A study of Mus musculus with 2 samples.

Results

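The adhesion G protein-coupled receptors are a family of cell surface receptors, taken here as the gene models named Adgr followed by a subfamily letter (A to G, L or V) and a number. The rule found 27 of the 34745 gene models in each library, and it used names alone. It leaves out the pseudogene Adgrd2-ps and the mouse genes of the C subfamily, which are named Celsr. RNA-seq was done on haematopoietic stem and progenitor cells from mouse marrow that were infected to carry PML/RARa, the fusion oncoprotein of acute promyelocytic leukaemia, which joins PML to the retinoic acid receptor RARa. The 2KR library is from cells infected with the form of the fusion labelled 2KR, in a series whose title names 2 lysines of the fusion. The WT library is from cells infected with the form labelled WT. Both came from C57BL/6 marrow of mice given 5-fluorouracil, enriched for progenitors, infected by lentivirus, grown with SCF, IL-3, IL-6, hydrocortisone and serum, and sorted for transduced cells. The age of the mice, the promoter that drives the fusion and any pooling of marrow were not given in the sources used here. Cells with empty vector, also named by the submitters, were not analysed here, so neither library shows cells without the fusion.

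Each form had 1 library, so no difference here has a replicate check and no p-value was computed. Intervals are exact 95% limits of counting error alone. The 2KR library held 20462011 counts and the WT library 17606168. Levels are compared between libraries in CPM, which are counts brought to a common library total, here scaled by the TMM method, on which 1 count was worth 0.0485 CPM in 2KR and 0.0572 CPM in WT. In bulk RNA, fewer cells of a type and less RNA per cell cannot be told apart. All 5 progenitor markers (Kit, Cd34, Myb, Gata2 and Flt3) were read in both libraries. Their summed levels were 3213 CPM in 2KR and 3060 CPM in WT. By the size rule and filter given below, 0 of the 5 differed, beside 7.22% of all tested models. Within the sum, Cd34 (ratio 1.86), Flt3 (1.81) and Myb (1.39) had ratios above 1, as Adgrg1 did, and Gata2 (0.655) and Kit (0.853) had ratios below 1. Of markers of other cell types, 5 of 5 mast cell genes were at least 2-fold lower in 2KR, beside 4.56% of all tested models. Their sums were 2900 CPM in 2KR and 6238 CPM in WT. Of the 5, Hdc was close to the threshold, at 2.02-fold lower (1.96 to 2.07). Ms4a2, with 18 counts in 2KR and 66 in WT, reached 1 CPM in WT alone. Another, Cma1, had 2 counts in 2KR and 62 in WT. It passed the filter through WT alone, so its call was fixed by the filter. Of 4 tested megakaryocyte genes 2 were at least 2-fold higher, beside 2.66% of all tested models. The 5 megakaryocyte genes had sums of 1295 CPM in 2KR and 1001 CPM in WT. Some markers of other lineages had 0 counts in both libraries. Among these were Hbb-bs of red cells, Cd3e of T cells, Cd79b and Pax5 of B cells and Camp of neutrophils. Others of the same lists were read, as Hba-a1 of red cells, with 415 counts in 2KR and 187 in WT. Of the T and NK cell list, Cd3g had 40 counts in 2KR and 72 in WT, and Tbx21 116 in 2KR and 54 in WT. Ngp of neutrophils had 26 counts in each library. The part of these cell types in the receptor values was not tested.

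Receptors of this family carry a long extracellular region that binds proteins of the matrix or of other cells, joined to a membrane domain that signals through G proteins. Most cut themselves at a site next to the membrane, and the stretch after the cut acts as a tethered agonist when the extracellular part is pulled away. In blood formation the best studied member is Adgrg1 (GPR56), a surface receptor of stem and progenitor cells that couples to G12 and G13. Adgre5 (CD97) and Adgre1 (F4/80) are classical leukocyte antigens, while the latrophilins Adgrl1 to Adgrl3 are best known at synapses.

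The genes Adgrg1 and Adgrg3 lie side by side on chromosome 8, on the same strand, 3.483 kb apart. Their starts are shown because these neighbours were the most abundant members by deposited FPKM (counts scaled to gene length) in both libraries. RefSeq gives 300 bases around each annotated start (GRCm38.p6, plus strand, 5′ to 3′), with 2 starts for Adgrg1. Capitals mark matches, on either strand, to AGGTCA (the unit of a retinoid receptor site), GAGGAA (the core of a PU.1 site) or GATAAG (bound by erythroid and progenitor factors of the Gata family).
Adgrg1, first start, chr8:94976859-94977158: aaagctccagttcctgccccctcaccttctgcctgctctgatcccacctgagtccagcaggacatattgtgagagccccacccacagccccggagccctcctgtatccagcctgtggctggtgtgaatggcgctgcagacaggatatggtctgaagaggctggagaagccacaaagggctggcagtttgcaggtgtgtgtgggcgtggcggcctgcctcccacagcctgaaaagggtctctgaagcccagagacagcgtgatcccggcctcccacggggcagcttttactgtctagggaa
Adgrg1, second start, chr8:94984149-94984448: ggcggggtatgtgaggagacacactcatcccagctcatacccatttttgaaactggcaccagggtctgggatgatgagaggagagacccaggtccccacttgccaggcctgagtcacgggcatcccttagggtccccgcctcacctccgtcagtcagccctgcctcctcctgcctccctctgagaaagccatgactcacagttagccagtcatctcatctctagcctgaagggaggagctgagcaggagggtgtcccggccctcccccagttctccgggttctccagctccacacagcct
Adgrg3, chr8:95017442-95017741: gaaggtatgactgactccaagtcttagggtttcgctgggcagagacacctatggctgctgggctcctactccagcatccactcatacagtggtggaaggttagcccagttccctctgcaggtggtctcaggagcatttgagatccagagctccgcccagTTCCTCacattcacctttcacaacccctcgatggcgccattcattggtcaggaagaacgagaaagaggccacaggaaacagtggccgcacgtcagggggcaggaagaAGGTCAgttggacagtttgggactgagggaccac

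The window of Adgrg3 holds AGGTCA at bases 267 to 272 and, on the other strand, GAGGAA at bases 160 to 165. Neither Adgrg1 window holds any of the 3 motifs. RefSeq windows were matched for 20 of the 27 members, 24 windows in all. Among the 24, AGGTCA was in 2, GAGGAA in 10 and GATAAG in 2. Over all 32851 windows of this length the shares were 16.3% for AGGTCA, 28.3% for GAGGAA and 7.44% for GATAAG. These are letter matches in a fixed window and not sites of binding.

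The family was read unevenly. Of the 27 members, 7 had 0 counts in both libraries, 8 had 1 to 9 counts in the higher library, and 12 had at least 10 counts in at least 1 library. The 7 at 0 were Adgrb1, Adgre4, Adgrf1, Adgrf2, Adgrf5, Adgrg4 and Adgrv1, and 0 counts allow up to 0.146 CPM in 2KR and 0.172 CPM in WT. Among these silent members are Adgrb1 (BAI1), a receptor that binds phosphatidylserine on dying cells, and Adgrv1, the very large receptor of hair cells in the inner ear. All 5 F genes had at most 3 counts in a library. Among the 8 low members were Adgrg7, Adgra2, Adgrf3, Adgrf4, Adgrl3, Adgrg2 and Adgrb3. Of these, Adgrg7 had 2 counts in 2KR and 7 in WT, and the 6 named after it had at most 3 counts in either library. Adgra2, which works with Reck as a coreceptor for Wnt7 in brain vessels, had 3 counts in 2KR and 1 in WT.

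**Figure D1:**
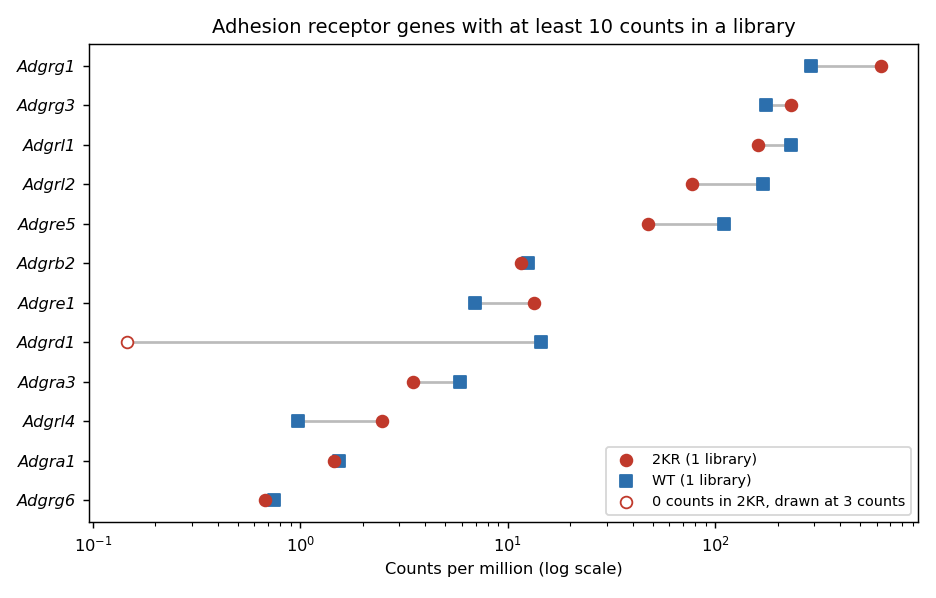
Level of the 12 adhesion receptor genes with at least 10 counts in a library, in CPM (counts scaled to the library total) on a log scale, with a circle for the 2KR library and a square for the WT library. The open circle is drawn at 3 counts. Adgrg1 stands at the top of both libraries, and Adgrd1, with 0 counts in 2KR and 14.4 CPM in WT, has the widest gap.

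A gene model was called different when the log2 ratio of CPM + 1, 2KR over WT, was at least 1 in size, and this rule was applied only where the mean of both libraries reached 1 CPM. Of all 34745 models 35.9% reached that mean, and 11 of the 27 members did. By the size rule 1 member, Adgrg1, was higher in 2KR, where 2.66% of the 12466 tested models were higher. The 3 members lower in 2KR were Adgrd1, Adgre5 and Adgrl2, where 4.56% of tested models were lower. Together these are 4 of 11 members, beside 7.22% of tested models in either direction. Adgrd1 passed the filter through the WT library alone and so had to differ, and these counts are given as a description. The median log2 ratio of the 11 was -0.09, with 4 ratios above 1 and 7 below, and that of all tested models was 0.02 with quartiles of -0.21 and 0.23.

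Adgrg1 (ENSMUSG00000031785, chromosome 8, 94977109 to 95014208 in GRCm38) was the most abundant member in both libraries. It had 12951 counts in 2KR and 5045 in WT, which is 628.5 CPM in 2KR and 288.6 CPM in WT. The 2KR level was 2.18 times the WT level (2.11 to 2.25), and 97.9% of tested models had a lower log2 ratio. By deposited FPKM, which scales counts to gene length, it was at 163.8 in 2KR and 74.2 in WT, which placed it 168th among all models in 2KR and 435th in WT. It was therefore among the highly read genes of these cells in either library.

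Adgrg3 (GPR97, ENSMUSG00000060470, chromosome 8, 95017692 to 95045247), a receptor of granulocytes and other leukocytes, starts 3.483 kb past the end of Adgrg1. It had 4800 counts (233 CPM) in 2KR and 3071 counts (176 CPM) in WT. The ratio was 1.33 (1.27 to 1.39), the same direction as Adgrg1 and under the size rule. On the other side of Adgrg1 the nearest tested model is Ccdc102a, whose ratio was 1.53, and past Adgrg3 it is Drc7, whose ratio was 1.44 on 34 counts in 2KR and 20 in WT, with an interval (0.807 to 2.64) that held 1. The 4 tested models in this stretch thus had ratios above 1, where 47.7% of all tested models had ratios below 1. Of the 4, 1 reached the size rule, beside 2.66% of all tested models called higher. Models of the stretch that were not tested are not in this count, and a part of position was not tested. Adgrg6 (GPR126, chromosome 10, 14402585 to 14545036), the receptor needed for myelination by Schwann cells, was the other G gene above 10 counts, with 14 in 2KR and 13 in WT, a ratio of 0.914 (0.398 to 2.11).

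**Figure D2:**
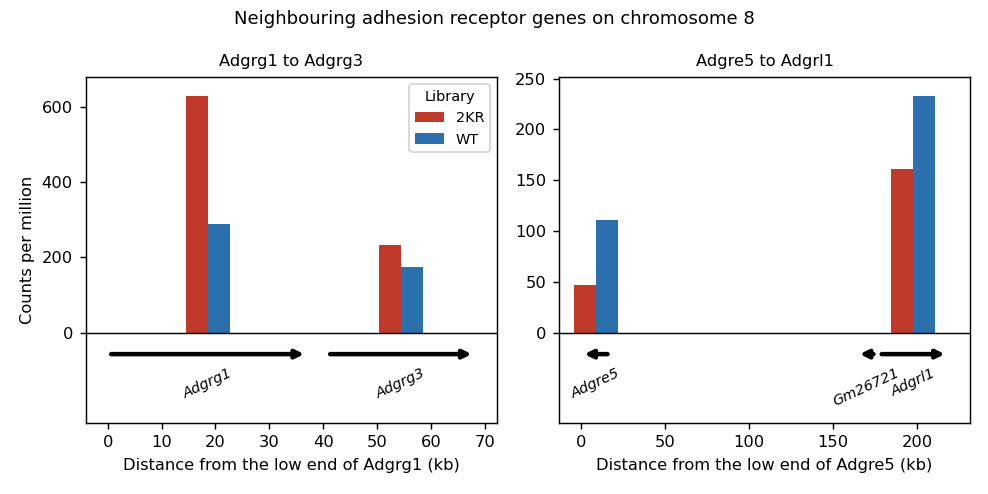
Level in CPM of neighbouring adhesion receptor genes on chromosome 8 against distance in kb from the low end of the first gene, with 2KR bars left of WT bars and an arrow for each gene model and its strand. Adgrg1 and Adgrg3 have ratios of 2.18 and 1.33, while Adgre5 and Adgrl1 have ratios of 0.428 and 0.694. The scales of the panels differ.

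Of the 4 genes of subfamily L, the latrophilins and their relative Adgrl4, Adgrl2 was called lower in 2KR, Adgrl1 had a ratio below 1 and Adgrl4 a ratio above 1, and Adgrl3 had 0 counts in 2KR and 1 in WT. Adgrl2 (ENSMUSG00000028184, chromosome 3, 148815583 to 148990555) had 1596 counts (77.5 CPM) in 2KR and 2966 counts (169.6 CPM) in WT. It was 2.19-fold lower in 2KR (2.06 to 2.33), and its log2 ratio of -1.12 was the closest of the called members to the threshold on the lower side. Adgrl1 (ENSMUSG00000013033, chromosome 8, 83900105 to 83941954), the receptor of alpha-latrotoxin from spider venom, had 3329 counts (161.6 CPM) in 2KR and 4070 counts (232.8 CPM) in WT. That is 1.44-fold lower (1.38 to 1.51), under the size rule. Gm10644, which overlaps Adgrl1 on the other strand, had 1 count in 2KR and 10 in WT.

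Adgrl4 (ELTD1, chromosome 3, 151437887 to 151545086), a receptor of blood vessel cells, lies on the same chromosome as Adgrl2. It had 51 counts (2.48 CPM) in 2KR and 17 counts (0.972 CPM) in WT, a ratio of 2.55 (1.45 to 4.70). Its log2 ratio of CPM + 1 was 0.82, because the pseudocount weighs on low levels, so it was not called. Beside it, the 6 endothelial markers had sums of 694.5 CPM in 2KR and 565.9 CPM in WT, of which Pecam1, also read in blood cells, made up the bulk. Cdh5, the cadherin of vessel walls, had 9.27 CPM in 2KR and 4.63 CPM in WT, and Emcn was at 0 in both. Kdr had a ratio of 1.72 (1.39 to 2.14) and Tek a ratio of 1.39 (0.884 to 2.21). Vwf, with 27 counts in 2KR and 42 in WT, had a ratio of 0.545 (0.323 to 0.906). By the size rule 0 of the 5 tested markers differed, beside 7.22% of all tested models. The part of endothelial cells in the Adgrl4 value was not tested. Summed over the 4 L genes the level was 241 CPM in 2KR and 403 CPM in WT, a ratio of 0.599 (0.577 to 0.621).

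Of the leukocyte antigens of subfamily E, Adgre5 was called lower in 2KR, while Adgre1 had a ratio above 1 and was under the size rule. Adgre5 (CD97, ENSMUSG00000002885, chromosome 8, 83723251 to 83741326), which binds CD55 on neighbouring cells, had 977 counts (47.4 CPM) in 2KR and 1939 counts (110.9 CPM) in WT. It was 2.34-fold lower in 2KR (2.16 to 2.53). Its gene model overlaps that of Ddx39 on the other strand, which had 1105 counts in 2KR and 905 in WT, a ratio of 1.04. Whether reads were counted by strand is unknown, so reads in the overlap cannot be told apart. Adgre5 and Adgrl1 lie 158.778 kb apart, and both had ratios below 1, while Asf1b, the nearest tested model past Adgrl1, had a ratio of 1.01.

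Adgre1 (F4/80, ENSMUSG00000004730, chromosome 17, 57358686 to 57483529), the antigen used to mark mouse macrophages, had 275 counts (13.3 CPM) in 2KR and 121 counts (6.92 CPM) in WT. The ratio was 1.93 (1.55 to 2.41) and the log2 ratio 0.86, the nearest to the threshold of the members left uncalled. The 5 macrophage markers had sums of 17.7 CPM in 2KR and 27.8 CPM in WT, and 1 of them was tested. Mertk had 2 counts in each library, Mrc1 3 in 2KR and 2 in WT, and C1qa 4 in 2KR and 3 in WT. Csf1r, the receptor that macrophages need, had 12 counts in 2KR and 10 in WT. Cd68, the tested marker, made up most of both sums, with 16.6 CPM in 2KR and 26.8 CPM in WT. Eosinophils also carry this antigen, and their 5 markers had sums of 2.62 CPM in 2KR and 3.32 CPM in WT, with Epx at 0 in both. Of these, Siglecf had 39 counts in 2KR and 10 in WT, a ratio of 3.31 (1.62 to 7.43) in the same direction as Adgre1, while Il5ra had 15 counts in 2KR and 43 in WT. The part of these cells in the Adgre1 value was not tested. Adgre4 had 0 counts in both libraries.

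Adgrd1 (GPR133, ENSMUSG00000044017, chromosome 5, 129096750 to 129204599), a receptor that raises cAMP through Gs, had 0 counts in 2KR and 252 counts (14.4 CPM) in WT. With 3 counts as the floor of the 2KR library, it was at least 99.0-fold lower there, and the exact limit, which also counts the error of the WT value, was 79.9-fold. Of tested models 0.0802% had a lower log2 ratio. The nearest tested models on either side, Ran at 72.426 kb and Sfswap at 296.621 kb, had ratios of 1.25 and 0.808, so the gap in reads did not extend to them. Ran is the small GTPase of nuclear transport and Sfswap a splicing factor.

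**Figure D3:**
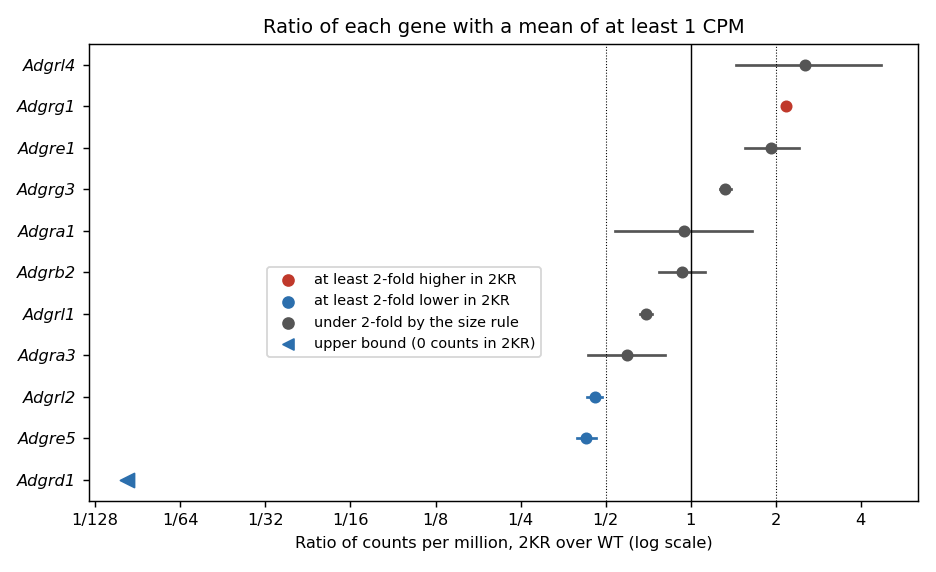
Ratio of CPM, 2KR over WT, on a log scale for the 11 adhesion receptor genes with a mean of at least 1 CPM, with lines for the exact 95% counting interval and dotted lines at 2-fold. Adgrg1 lies above 2, as does Adgrl4, which the pseudocount keeps under the size rule, Adgrl2 and Adgre5 lie below 1/2, and the triangle for Adgrd1 is an upper bound set by 3 counts.

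The remaining tested members were low and close between the libraries or under the size rule. Adgrb2 (BAI2, chromosome 4, 129984870 to 130022633), a receptor best known in brain, had 240 counts (11.6 CPM) in 2KR and 218 counts (12.5 CPM) in WT, a ratio of 0.934 (0.774 to 1.13). Adgra3 (GPR125, chromosome 5, 49959956 to 50059006) had 72 counts (3.49 CPM) in 2KR and 103 counts (5.89 CPM) in WT, a ratio of 0.593 (0.433 to 0.809). Adgra1 (chromosome 7, 139834174 to 139878088) had 30 counts (1.46 CPM) in 2KR and 27 counts (1.54 CPM) in WT, a ratio of 0.943 (0.542 to 1.65). The interval held a ratio of 1 for Adgrb2 and Adgra1 and lay wholly below 1 for Adgra3.

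The 11 tested members have 22 nearest tested neighbours, some of them members themselves, of which 3 were at least 2-fold higher and 4 at least 2-fold lower in 2KR, beside 2.66% and 4.56% of all tested models. Of these calls, 1 of the higher (Adgrg1) and 2 of the lower (Adgre5 and Adgrl2) are members. Their median log2 ratio was -0.15 and their range was -2.21 to 1.35. The lowest was that of Ppargc1a, a coactivator of mitochondrial genes, 1395.24 kb from Adgra3, with a ratio of 0.199. The highest was that of Pdzph1, 1395.28 kb from Adgre1, with 77 counts in 2KR and 15 in WT. Col16a1, a collagen gene 25.206 kb from Adgrb2, had 183 counts in 2KR and 62 in WT and was called higher, while Adgrb2 was not.

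The make-up of the family's transcripts differed between the libraries. Summed over the 27 members, the level was 1182 CPM in 2KR and 1022 CPM in WT, a ratio of 1.16 (1.13 to 1.18). Without Adgrg1 the sum was 553 CPM in 2KR and 733 CPM in WT. By deposited FPKM, Adgrg1 made up 57.0% of the summed level in 2KR and 38.9% in WT. Adgrg3 made up 33.5% in 2KR and 37.6% in WT, the L genes 4.86% in 2KR and 11.2% in WT, and the E genes 3.98% in 2KR and 10.4% in WT. The ratio of Adgrg1 to Adgrg3 in FPKM was 1.70 in 2KR and 1.04 in WT. These shares depend on the gene length used: by merged exons of GENCODE M21, a length chosen after seeing the data, Adgrg3 made up 17.4% in 2KR and 16.4% in WT, the opposite direction. On that length the L genes made up 12.8% in 2KR and 25.4% in WT, the E genes 8.63% in 2KR and 20.5% in WT, and the ratio of Adgrg1 to Adgrg3 was 3.44 in 2KR and 2.09 in WT.

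**Figure D4:**
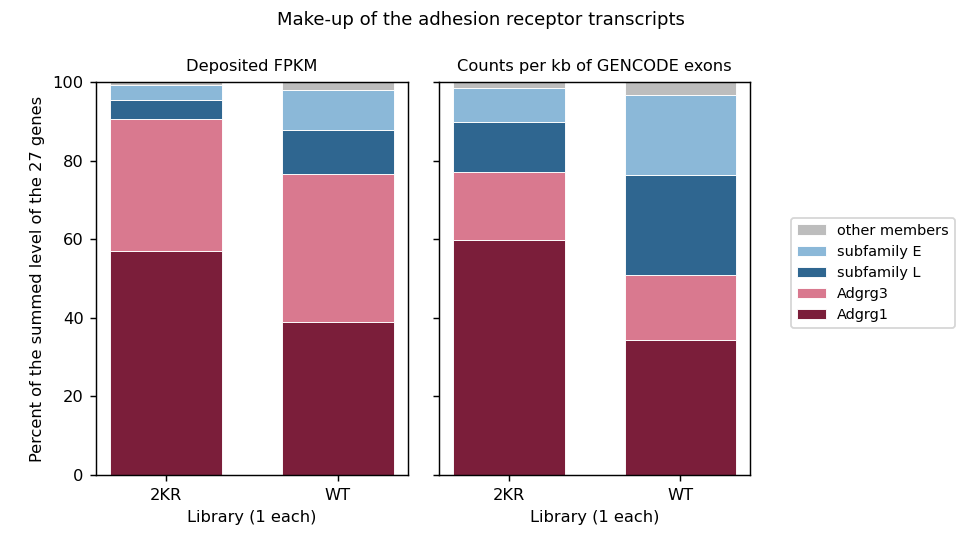
Percent of the summed level of the 27 adhesion receptor genes taken by Adgrg1, Adgrg3, the L genes, the E genes and the rest, with 2KR left of WT, by deposited FPKM (left) and by counts per kb of GENCODE exons (right). Adgrg1 takes 57.0% in 2KR and 38.9% in WT by FPKM, and 59.8% in 2KR and 34.4% in WT by exon length.

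The order of levels depends on the length used. The length behind the deposited FPKM, found from count, FPKM and library total, was 0.353 times the merged exons of GENCODE M21 for Adgrg3 and 2.16 times for Adgrl2. By FPKM the order in 2KR was Adgrg1, Adgrg3, Adgrl1, Adgre5, Adgre1, Adgrl2 and Adgrb2, all apart beyond counting error. In WT it was Adgrg1, Adgrg3, Adgre5, Adgrl1, Adgrl2, Adgre1, Adgrd1 and Adgrb2, where the intervals of Adgrg1 and Adgrg3 overlapped, as did those of Adgre1 with Adgrd1 and of Adgrd1 with Adgrb2. By CPM per kb of merged exons, Adgrg1 led in both libraries, at 116.8 in 2KR and 52.9 in WT. On this scale Adgrg3 came next in 2KR, at 34.0, but in WT, at 25.3, it stood behind Adgre5 at 29.3 and Adgrl1 at 26.9, and its interval overlapped that of Adgrl1. Adgrg1 was thus first in 2KR and WT on both lengths, and the place of Adgrg3 in WT was not settled. Ratios of CPM between the libraries do not depend on the length. Log2 ratios of FPKM with a pseudocount of 1 FPKM do, and that of Adgrl2 was -0.87, against -1.12 with CPM.

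The cadherin-type relatives of subfamily C, which organise planar cell polarity, were compared as genes outside the name rule. Celsr1 had 1650 counts (80.1 CPM) in 2KR and 1276 counts (73.0 CPM) in WT, a ratio of 1.10 (1.02 to 1.18). Celsr2 had a ratio of 1.02 (0.864 to 1.20), and Celsr3 had 57 counts in 2KR and 88 in WT, a ratio of 0.550 (0.387 to 0.776). By the size rule 0 of these 3 differed, beside 7.22% of all tested models. Their median log2 ratio was 0.02, the same as that of all tested models to this precision.

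Of 35 known ligands and binding partners of these receptors, 19 were tested, 2 were at least 2-fold higher and 2 at least 2-fold lower in 2KR, beside 2.66% and 4.56% of all tested models, with a median log2 ratio of -0.19. Of the partners of Adgrg1, the enzyme gene Tgm2 had 104 counts in 2KR and 237 in WT and was 2.69-fold lower (2.12 to 3.42), while the collagen gene Col3a1 had 4 counts in 2KR and 3 in WT. The tetraspanin gene Cd81, whose protein binds GPR56, had 190 CPM in 2KR and 219 CPM in WT. Thy1, which encodes the surface protein CD90 bound by human CD97, had 314 CPM in 2KR and 152 CPM in WT, 2.07-fold higher (1.98 to 2.17). Cd55, whose protein is also bound by CD97, had 24.7 CPM in 2KR and 15.8 CPM in WT, under the size rule. Thy1 and Cd55 thus had ratios above 1 where Adgre5 itself was lower, but other partner genes of the list did not all do so. Of its integrin genes, Itga5 had a ratio of 1.13, while Itgb1, Itgav and Itgb3 had ratios of 0.929, 0.875 and 0.613.

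For the latrophilins, Flrt3, a membrane ligand, had 2 counts in 2KR and 34 in WT, 20.04-fold lower (5.14 to 172), and overlaps the model of Macrod2. It passed the filter through WT alone, so its call was fixed by the filter. The partner genes Tenm1 and Tenm2 had 0 counts in both libraries, while Nrxn3 had 34 counts in 2KR and 0 in WT and was not tested, with a mean under 1 CPM. Reck had 87 counts in 2KR and 27 in WT, a ratio of 2.73 (1.76 to 4.38), beside near-silent Adgra2. Wnt7a and Wnt7b were at 0 in both. The integrin genes Itgb3, at 693 CPM in 2KR and 1130 CPM in WT, and Itgb1, at 506 CPM in 2KR and 545 CPM in WT, were the most abundant of the list and under the size rule. Ptk7 and Plxdc2, reported partners of human GPR133, had 117 CPM in 2KR and 108 CPM in WT for Ptk7, and 251 CPM in 2KR and 362 CPM in WT for Plxdc2. These partners were thus read in both libraries, also in 2KR where Adgrd1 had 0 counts.

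Of 16 genes of G protein alpha subunits 11 were tested, 0 were at least 2-fold higher and 1 was at least 2-fold lower. These stand beside 2.66% and 4.56% of all tested models, and the median log2 ratio was -0.06. The lower member was Gnaz, a subunit of the Gi class, with 87 counts in 2KR and 168 in WT, 2.28-fold lower (1.75 to 2.98). Gna14, of the Gq class, had 22.9 CPM in 2KR and 45.9 CPM in WT and a log2 ratio of -0.97. Gna12 had 112 CPM in 2KR and 119 CPM in WT, and Gna13 had 119 CPM in 2KR and 124 CPM in WT, ratios of 0.937 (0.883 to 0.995) and 0.961 (0.907 to 1.02) for the subunits that GPR56 uses. Gnai2 at 857 CPM in 2KR and 773 CPM in WT, and Gnas at 472 CPM in 2KR and 437 CPM in WT, were the most abundant. Gnai3 was 1.26-fold lower (1.22 to 1.31), and Gna15, the subunit of blood cells, had a ratio of 1.51 (1.28 to 1.78).

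The RhoA branch, the route taken by G12 and G13, had a median log2 ratio of -0.29 over 17 tested genes, with 13 ratios below 1, 0 genes at least 2-fold higher and 2 at least 2-fold lower. Of all tested models 47.7% had ratios below 1, and by the size rule 2.66% were higher and 4.56% lower. The count of 2 lower genes fell to 0 with FPKM, with a pseudocount of 5 CPM and with a mean of at least 5 CPM. Arhgef12, an exchange factor that links G12 and G13 to RhoA, had 14 counts in 2KR and 48 in WT, 4.04-fold lower (2.19 to 7.94). At 0.679 CPM in 2KR and 2.75 CPM in WT, Arhgef12 passed the filter through WT alone. The related Arhgef11 had 29.1 CPM in 2KR and 57.7 CPM in WT and a log2 ratio of -0.96, while Arhgef1, the main exchange factor of this class in blood cells, had 222 CPM in 2KR and 241 CPM in WT. Myl9, a light chain of smooth muscle myosin, had 54 counts in 2KR and 117 in WT, 2.55-fold lower (1.83 to 3.59). The actin regulators Cfl1 and Limk2 had ratios of 1.02 and 0.703, and Akap13, a large RhoA exchange factor and scaffold, had 1273 CPM in 2KR and 1323 CPM in WT.

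The cAMP branch, the route taken by Gs, had a median log2 ratio of 0.07 over 15 tested genes. By the size rule 0 of them differed in either direction, beside 7.22% of all tested models. Prkacb, a catalytic subunit of protein kinase A, had 1191 CPM in 2KR and 1601 CPM in WT, 1.34-fold lower (1.32 to 1.37). The adenylyl cyclase gene Adcy9 had 41.7 CPM in 2KR and 31.1 CPM in WT, Creb1, a cAMP-responsive factor, a ratio of 1.23 (1.16 to 1.30), and Prkar1a, a regulatory subunit of the kinase, 1.05 (1.03 to 1.07). Adcy3 had 43 counts in 2KR and 30 in WT.

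Among receptor kinases, arrestins and engulfment adaptors, 17 of 18 genes were tested, 1 was at least 2-fold higher and 2 were at least 2-fold lower, beside 2.66% and 4.56% of all tested models, with a median log2 ratio of -0.11. Adrbk2 (Grk3), a kinase that shuts off activated receptors, had 39.1 CPM in 2KR and 205 CPM in WT, 5.25-fold lower (4.87 to 5.68). Its close relative Adrbk1 (Grk2) had 148 CPM in 2KR and 151 CPM in WT, so the difference was not shared by the pair. Grk4 had 38 counts in 2KR and 76 in WT and was under the size rule.

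Dock1, whose protein forms with ELMO the module that acts downstream of BAI1, had 2 counts in 2KR and 172 in WT, 101-fold lower (27.6 to 844). It too passed the filter through WT alone, which fixed its call. Dock2, its relative in blood cells, had 284 CPM in 2KR and 238 CPM in WT, and Elmo1 had 299 CPM in 2KR and 172 CPM in WT. Rac1, the GTPase that this module activates, had 9167 counts (445 CPM) in 2KR and 2051 counts (117 CPM) in WT, a ratio of 3.79 (3.61 to 3.98), and its gene model overlaps that of Daglb, so its value is uncertain where reads were shared. Rac2, the form of blood cells, had 23.3 CPM in 2KR and 36.7 CPM in WT. Adgrb1, the receptor of this module, had 0 counts in both libraries.

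**Figure D5:**
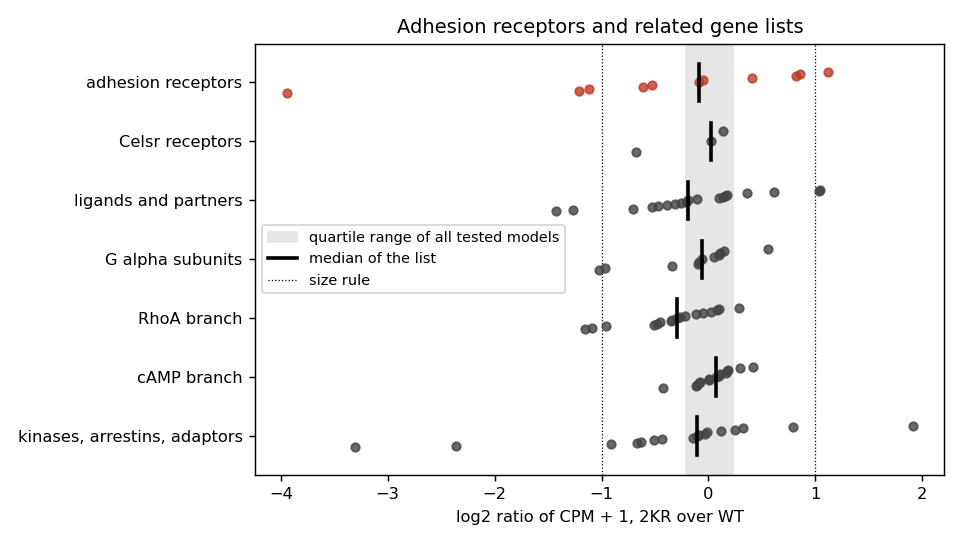
Log2 ratio of CPM + 1, 2KR over WT, of each tested gene of the adhesion receptors and of 6 related lists, with the list median as a bar, the quartile range of all tested models in grey and the size rule as dotted lines. The 11 receptors spread from -3.95 to 1.12 about a median of -0.09, and the 15 tested cAMP genes lie between -0.43 and 0.41.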

How the data were processed

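RNA-seq was done on 2 samples, 1 of each form of the fusion, grouped by the infection stated for each. Per the submitters' processing notes, the build was GRCm38, and HISAT2 2.0.4 is among the tools named. How reads were counted, by strand or not, and on which annotation was not stated. For each of 34745 gene models the authors deposited raw counts and FPKM, per the file headers. The deposited FPKM equalled, within 0.1%, a count over the library total and a fixed length per model, for 15403 of the 15403 models counted in 2KR and WT.

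Counts were scaled by TMM factors (1.007 for 2KR, 0.993 for WT) with edgeR 4.0.16 in R 4.3.3. Ratios, intervals and figures were made in Python 3.11.15 (scipy 1.17.1, pandas 2.3.3, numpy 2.4.6, matplotlib 3.10.9). Ratios divide the CPM in 2KR by that in WT, and their intervals are Clopper-Pearson limits on the split of a gene's counts between the libraries. The log2 ratio used a pseudocount of 1 CPM, which understates differences of low genes. The size rule was applied to models whose mean reached 1 CPM, with no statistical test, because neither form was replicated. A library at 0 was given a floor of 3 counts, for counting error only. Strand and exons came from GENCODE M21, which held all 27 members, 21 with the same start and end as the files. Windows at gene starts came from RefSeq (GRCm38.p6). Protein sequences were not used here, so the planned comparison of cleavage sites was not made.

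Every member was counted, some items are not reported here, and members with at least 10 counts were given with values. From each related list the text names 4 genes by size of log2 ratio, among those with a mean of 1 CPM or more, and 2 by highest mean CPM. Other genes of the lists were named after their values were seen: Col3a1, Cd81, Cd55, Itga5, Itgav, Tenm1, Tenm2, Nrxn3, Wnt7a, Wnt7b, Ptk7, Plxdc2, Gna12, Gna13, Arhgef1, Adrbk1, Elmo1 and Rac2. Members and lists were chosen with earlier results of these data known. Alternatives tried were DESeq2 1.42.0 size factors, library totals, centring on the median of tested models, the deposited FPKM, other pseudocounts and other filters. Exon lengths of GENCODE were added after the data were seen.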

Additional observations from a re-analysis of the deposited data

How the results depend on the processing

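No paired analysis was possible because each form had 1 library, and for the same reason no replicate could be left out. Of the 11 tested members, each kept the sign of its log2 ratio under each of the 8 other settings that gave it a value (7 for Adgra1, Adgra3 and Adgrl4, which did not reach a mean of 5 CPM). Adgrg1 ranged from 1.10 to 1.14, Adgre5 from -1.23 to -1.11 and Adgrd1 from -7.18 to -1.28, all past the threshold throughout. Adgrl2 ranged from -1.14 to -0.87 and was under the size rule with FPKM and a pseudocount of 1 FPKM, which leaves 2 members lower instead of 3. Adgrl4 ranged from 0.29 to 1.26, and at a pseudocount of 0.1 CPM it was called, which gives 2 members higher instead of 1. Under the scalings tried, the median log2 ratio of all tested models moved from 0.02 to at most 0.04. Over all tested models the 331 higher and 569 lower became 166 and 282 with FPKM, 147 and 297 with a pseudocount of 5 CPM, and 207 and 377 with a mean of at least 5 CPM, and they grew to 457 and 703 with a pseudocount of 0.1 CPM. In the ligand and partner list, 1 gene was higher with FPKM, with a pseudocount of 5 CPM and with a mean of at least 5 CPM, instead of 2, and the lower genes were 0, 0 and 1 under these settings. The lower genes of the G alpha list were 0 with FPKM and with a pseudocount of 5 CPM. Those of the RhoA list were 0 with FPKM, with a pseudocount of 5 CPM and with a mean of at least 5 CPM, and 1 gene was lower among kinases, arrestins and adaptors with a mean of at least 5 CPM. Other counts grew, as 3 genes of that list were lower at a pseudocount of 0.1 CPM, and 3 ligand genes were higher with no filter. A larger pseudocount pulls low genes toward 0, and a stricter filter tests fewer of them. With exon lengths of GENCODE, chosen after seeing the data, Adgrg1 was 59.8% of the summed level in 2KR and 34.4% in WT, and Adgrg3 17.4% in 2KR and 16.4% in WT. Depth limits the low members: at 10 counts or fewer, ratios of several fold lie within counting error.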
